A study of Homo sapiens with 4 samples.

Results

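The tubulin gene family was examined in A549 cells, an established epithelial line from a human lung adenocarcinoma. The members were the rows of the deposited table that carry 1 of 10 gene symbols, namely the α-tubulin genes TUBA1A, TUBA1B and TUBA1C, the β-tubulin genes TUBB, TUBB2A, TUBB2B, TUBB3, TUBB4B and TUBB6, and the γ-tubulin gene TUBG1. Of these 10 genes, 7 were among the 6828 genes of the table, and all 7 passed the filter on low values that left 6812 genes for testing. TUBB, TUBB2B and TUBB3 were not among the listed genes, and no value can be given for them. The table holds only genes that passed an adjusted p of 0.05 in the study's own comparison of the same libraries, so the listed members had already been selected for a difference.

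The study compared A549 cells infected with lentivirus carrying a control shRNA (shctrl) with A549 cells infected with lentivirus carrying an shRNA against the long noncoding RNA USP2-AS1 (shUSP2-AS1). RNA was taken 72 h after infection, and each group had 2 libraries from biological replicates. Both groups were cells of the same line and both carried a virus. Which USP2-AS1 hairpin was used for these libraries is not given in the sources used here, and effects of that hairpin on other RNAs cannot be told apart from the loss of USP2-AS1.

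Microtubules are hollow polymers of heterodimers of α- and β-tubulin, and the γ-tubulin ring complex templates new filaments at the centrosome and along existing microtubules. Humans have several genes for each chain, called isotypes, which encode closely similar proteins used in different proportions by different cell types. Dividing cells use the microtubules for the mitotic spindle, and TUBA1A is best known for its high expression in developing neurons. The level of tubulin mRNA is also under feedback, in which free tubulin leads TTC5 to recognise the start of the nascent chain and the CCR4-NOT deadenylase to degrade the mRNA.

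The α-tubulin genes of the TUBA1 group lie together on chromosome 12 (hg38), each with 4 exons in its canonical transcript in GENCODE v44. TUBA1A (ENSG00000167552) spans chr12:49184795-49189080 and TUBA1B (ENSG00000123416) spans chr12:49127782-49131397, both on the minus strand, and TUBA1C (ENSG00000167553) spans chr12:49188736-49274600 on the plus strand. Their coding sequences are nearly identical. TUBA1A and TUBA1B had the same base at 1315 of 1353 coding positions, an identity of 97.2%, and TUBA1B and TUBA1C at 1310 of 1347 positions, an identity of 97.3%.

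The promoters of TUBA1A, TUBA1B and TUBG1 are shown as the 250 bases before the RefSeq transcription start (GRCh38.p14, the same build as hg38). TUBA1A and TUBA1B are the 2 members that reached the fold change required for a call. TUBG1 was not called and had the largest log2 fold change in size of the other listed members. TUBA1A is at chr12:49189081-49189330 and TUBA1B at chr12:49131396-49131645, both minus strand, and TUBG1 is at chr17:42609433-42609682 on the plus strand. Motifs were searched on both strands, and capitals mark a CCAAT box (CCAAT), an E2F element (TTTCCCGC, TTTGGCGC, TTTCGCGC or TTTGCCGC), a CHR element (TTTGAA or TTCGAA) or a TATA box (TATAAA). No 2 capital runs overlap in these promoters.
TUBA1A: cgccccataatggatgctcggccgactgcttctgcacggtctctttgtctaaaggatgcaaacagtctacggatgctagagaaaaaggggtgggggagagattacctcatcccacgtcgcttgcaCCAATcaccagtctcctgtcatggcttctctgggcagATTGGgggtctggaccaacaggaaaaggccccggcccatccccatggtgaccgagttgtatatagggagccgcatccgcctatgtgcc
TUBA1B: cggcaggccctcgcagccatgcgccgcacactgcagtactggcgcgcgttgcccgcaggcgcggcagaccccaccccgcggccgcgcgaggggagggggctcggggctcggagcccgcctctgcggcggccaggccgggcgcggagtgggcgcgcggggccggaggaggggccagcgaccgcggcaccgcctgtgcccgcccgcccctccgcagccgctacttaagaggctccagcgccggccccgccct
TUBG1: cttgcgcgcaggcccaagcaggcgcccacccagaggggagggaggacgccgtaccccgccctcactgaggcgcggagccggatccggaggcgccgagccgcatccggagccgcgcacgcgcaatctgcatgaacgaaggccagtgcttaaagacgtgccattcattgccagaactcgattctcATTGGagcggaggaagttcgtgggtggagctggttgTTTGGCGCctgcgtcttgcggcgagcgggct
The TUBA1A promoter held 2 CCAAT boxes, which start 125 and 88 bases before the transcription start and the second of which reads ATTGG, the other strand. The TUBA1B promoter held no capital run and 3 GC boxes (GGGCGG, not in capitals), and its GC content was 81.2% against 56.4% for TUBA1A. The TUBG1 promoter held 1 E2F element, TTTGGCGC, starting 31 bases before the start, and 1 CCAAT box. No window of another listed member held an E2F element. The TUBB4B window held 1 CHR element and 3 CCAAT boxes, and the TUBA1C windows held 1, 0 and 2 CHR elements. No window of TUBB2A or TUBB6 held a CHR element. Among 35116 RefSeq promoters of this length, 32% held CCAAT, 2.79% an E2F element, 14.3% a CHR element, 10.7% a TATA box and 42.6% a GC box. These matches describe the letters of the window and do not show that a factor binds there.

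The labels were first checked with the targeted RNA. In shctrl, USP2-AS1 had normalised read counts of 23.2 and 24.2, against 2.10 and 6.16 after infection with shUSP2-AS1, with a log2 fold change of -2.39 (SE 0.56, adjusted p = 0.000597, limma). These values rest on 24 and 22 reads against 2 and 7 reads. The 4 libraries held 10772788 to 14120472 reads on the listed genes. The epithelial keratins KRT7, KRT8, KRT18 and KRT19 were among the listed genes, EPCAM and CDH1 were not, and none of 9 endothelial and blood markers was among the listed genes. Only genes that passed the study's adjusted p are listed, so a gene that is not listed may still be expressed. Its absence says nothing on which cell types were present.

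Among the 7 listed tubulin genes, TUBA1A rose and TUBA1B fell in the USP2-AS1 knockdown libraries, and the other 5 did not reach the fold change required for a call. A gene was called when its limma adjusted p was below 0.05 and its log2 fold change was at least 1 in size. By this rule 1 of 7 members was called higher, where 16.1% of all genes tested were, and 1 of 7 was called lower, where 13.5% of all genes tested were. All 7 members had an adjusted p below 0.05, and in all 7 the libraries of the groups did not overlap. For both criteria the percentage over all genes tested was 100%, with 6811 of 6812 genes, since the table lists only genes selected on this contrast, so that neither criterion says anything about tubulins. The median log2 fold change was -0.57 over the 7 members, 4 below 0 and 3 above 0, and 0.19 over all genes tested. The latter depended on the settings, and was -0.16 over the genes with at least 10 reads in every library and 0.069 with RLE scaling.

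**Figure D1:**
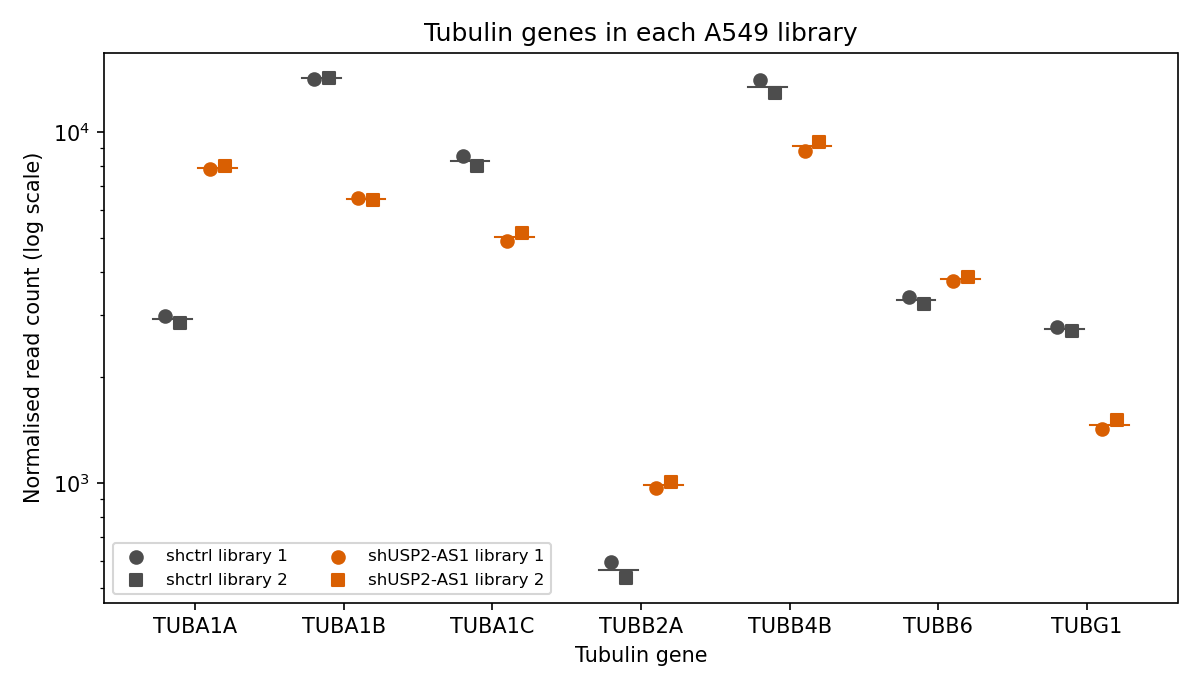
Normalised read count (log axis) of the 7 listed tubulin genes in each library, with circles for library 1, squares for library 2 and lines at the mean of 2 libraries per group. TUBA1A sits near 2925 in shctrl and 7925 in shUSP2-AS1, TUBA1B moves the other way from 14249 to 6443, and no gene has overlapping groups.

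TUBA1A, the neuronal-type α-tubulin, had normalised read counts of 2986 and 2864 with shctrl, and with shUSP2-AS1 they were 7840 and 8010. The replicates lay close together and the groups were far apart. The means were 2925 ± 86.2 and 7925 ± 121 (SD, n = 2), a 2.71-fold difference. TUBA1A thus rose by a log2 fold change of 1.44 (SE 0.050, adjusted p = 5.43e-14), which was rank 1086 of the 6812 genes by size.

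TUBA1B, the α-tubulin used widely in dividing cells, had 14220 and 14278 normalised reads in shctrl and 6474 and 6413 in shUSP2-AS1. Both knockdown libraries were below both control libraries. The means of 14249 ± 41.1 and 6443 ± 42.8 (SD, n = 2) were 2.21-fold apart. TUBA1B fell by 1.14 on the log2 scale (SE 0.047, adjusted p = 4.13e-13).

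The balance of the 2 genes turned over between the groups. The ratio of the TUBA1A to the TUBA1B normalised read count was 0.210 and 0.201 with shctrl, compared with 1.21 and 1.25 with shUSP2-AS1. TUBA1B had the higher count in both control libraries and TUBA1A in both knockdown libraries. An exact two-sided permutation test of 2 against 2 libraries cannot go below p = 0.333, so this ratio is given without a test. When the counts of TUBA1A and TUBA1B were added, the sum was 17174 ± 45.0 in shctrl and 14368 ± 77.8 in shUSP2-AS1 (SD, n = 2), which is a log2 fold change of -0.26 (SE 0.047, limma adjusted p = 5.63e-05).

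TUBA1C, the third ubiquitous α-tubulin gene of the cluster, had 8578 and 7988 normalised reads in shctrl and 4896 and 5165 in shUSP2-AS1. The groups did not overlap, and the log2 fold change was -0.72 (SE 0.052, 95% interval -0.83 to -0.61, adjusted p = 7.70e-10), short of the size required. The sum of TUBA1A, TUBA1B and TUBA1C was 25456 ± 462 in shctrl and 19398 ± 268 in shUSP2-AS1 (SD, n = 2), which is a log2 fold change of -0.39 (SE 0.048).

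The β-tubulin genes spread on either side of 0. TUBB4B (ENSG00000188229, chr9:137241287-137243707, plus strand), a broadly expressed β-tubulin, had 14093 and 12899 normalised reads in shctrl and 8827 and 9393 in shUSP2-AS1. Its log2 fold change was -0.57 (SE 0.054, adjusted p = 2.62e-08), not large enough for a call. TUBB2A (ENSG00000137267, chr6:3153666-3157544, minus strand), a β-tubulin abundant in neurons, had 594 and 536 normalised reads in shctrl and 966 and 1002 in shUSP2-AS1. It was the lowest of the 7 genes in read count, and its log2 fold change was 0.80 (SE 0.078, 95% interval 0.64 to 0.96, adjusted p = 3.48e-08), which also missed the size required. TUBB6 (ENSG00000176014, chr18:12307669-12344320, plus strand), a divergent β-tubulin, had 3381 and 3241 normalised reads in shctrl and 3756 and 3874 in shUSP2-AS1. The log2 fold change of TUBB6 was 0.20 (SE 0.051, adjusted p = 0.00103), the smallest of the 7 in size. It was 0.087 with RLE scaling (limma adjusted p = 0.0986) and 0.089 in DESeq2 with its own size factors (adjusted p = 0.169), neither of which passed an adjusted p of 0.05.

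TUBG1 (ENSG00000131462, chr17:42609683-42615238, plus strand) encodes the γ-tubulin of the nucleating ring complex. It had 2781 and 2716 normalised reads in shctrl and 1421 and 1506 in shUSP2-AS1. All knockdown values were below all control values, and the means of 2748 ± 46.2 and 1464 ± 60.6 (SD, n = 2) were 1.88-fold apart. The log2 fold change was -0.91 (SE 0.057, 95% interval -1.03 to -0.79, adjusted p = 1.16e-10), so the interval reached past -1 and the value did not. With RLE scaling of the recovered reads, which shifted the median of all genes by -0.12, TUBG1 was called lower at -1.03.

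**Figure D2:**
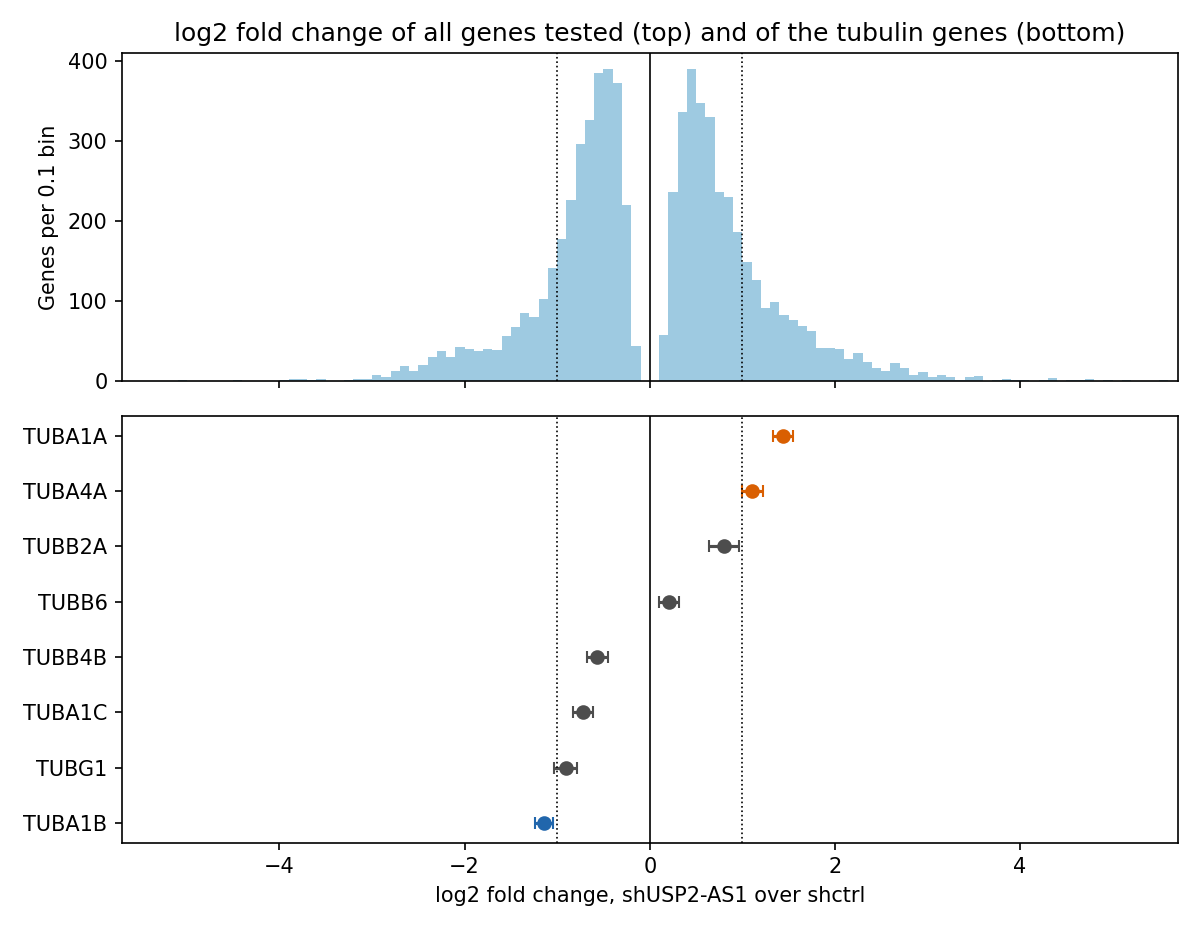
Top, number of genes tested per 0.1 bin of log2 fold change (shUSP2-AS1 over shctrl), and bottom, the value and 95% interval of the 7 listed members and TUBA4A, with orange for called higher, blue for called lower, grey for not called and dotted lines at -1 and 1. The empty centre of the upper plot comes with a table that lists selected genes, and TUBA1A at 1.44 and TUBA1B at -1.14 are the members past the dotted lines.

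Levels of different genes were compared per kilobase of the gene length in the table. In shctrl the order of the members was TUBB4B (6625 ± 415 normalised reads per kilobase), TUBA1B (3987 ± 11.5), TUBA1C (1860 ± 93.5), TUBG1 (1141 ± 19.2), TUBA1A (920 ± 27.1), TUBB6 (840 ± 25.1) and TUBB2A (323 ± 23.4). In shUSP2-AS1 it was TUBB4B (4472 ± 197), TUBA1A (2494 ± 37.9), TUBA1B (1803 ± 12.0), TUBA1C (1129 ± 42.6), TUBB6 (968 ± 21.1), TUBG1 (608 ± 25.2) and TUBB2A (563 ± 14.4), all as mean ± SD of 2 libraries. With the table's lengths, neighbours in each order did not overlap in their 2 libraries. Several places depended on the length used. With the length of the canonical transcript, TUBA1B (8740 and 8776) and TUBB4B (9017 and 8252) overlapped in shctrl, and so did TUBB6 (1799 and 1725), TUBA1A (1786 and 1713) and TUBG1 (1729 and 1689). In shUSP2-AS1, TUBB6 (1999 and 2062) then lay above TUBA1C (1734 and 1830). TUBA1A was second to TUBB4B in shUSP2-AS1 with either length.

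Among the listed α-tubulin genes, which also include TUBA4A, an isotype of platelets, muscle and neurons, the share of the summed level per kilobase was computed for each library. TUBA1A made up 11.5% and 11.2% of it in shctrl and 30.2% and 29.4% in shUSP2-AS1. TUBA1B made up 48.5% and 49.6% in shctrl and 22.2% and 20.9% in shUSP2-AS1. TUBA1C went from 22.9% ± 0.87 to 13.5% ± 0.049 and TUBA4A from 16.8% ± 0.33 to 35.2% ± 1.39 (SD, n = 2). The order of the shares thus ran from TUBA1B to TUBA1A in shctrl and from TUBA4A to TUBA1C in shUSP2-AS1. The summed level itself was 8201 and 8062 normalised reads per kilobase in shctrl and 8171 and 8574 in shUSP2-AS1, and these groups overlapped. The composition of the listed α-tubulin mRNAs therefore differed by more than the spread between replicates, and with the authors' scaling their summed level did not. The sum was not computed with other scalings. RLE scaling, for example, shifted the median of all genes by -0.12, so the overlap of the sums may depend on the scaling.

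Among the 3 listed β-tubulin genes, TUBB4B held 85.2% and 84.9% of the summed level per kilobase in shctrl and 74.2% and 74.8% in shUSP2-AS1. TUBB6 went from 10.8% ± 0.32 to 16.1% ± 0.27 and TUBB2A from 4.15% ± 0.054 to 9.38% ± 0.12 (SD, n = 2). With canonical transcript lengths the levels of these shares differed, with TUBB6 at 16.4% and 23.98% and TUBB4B at 80.3% and 68.8%, in the same directions. Their summed level was 7789 ± 463 normalised reads per kilobase in shctrl and 6003 ± 232 in shUSP2-AS1, with no overlap. Since TUBB is not among the listed genes, these are shares of the listed genes and not of all β-tubulin mRNA.

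**Figure D3:**
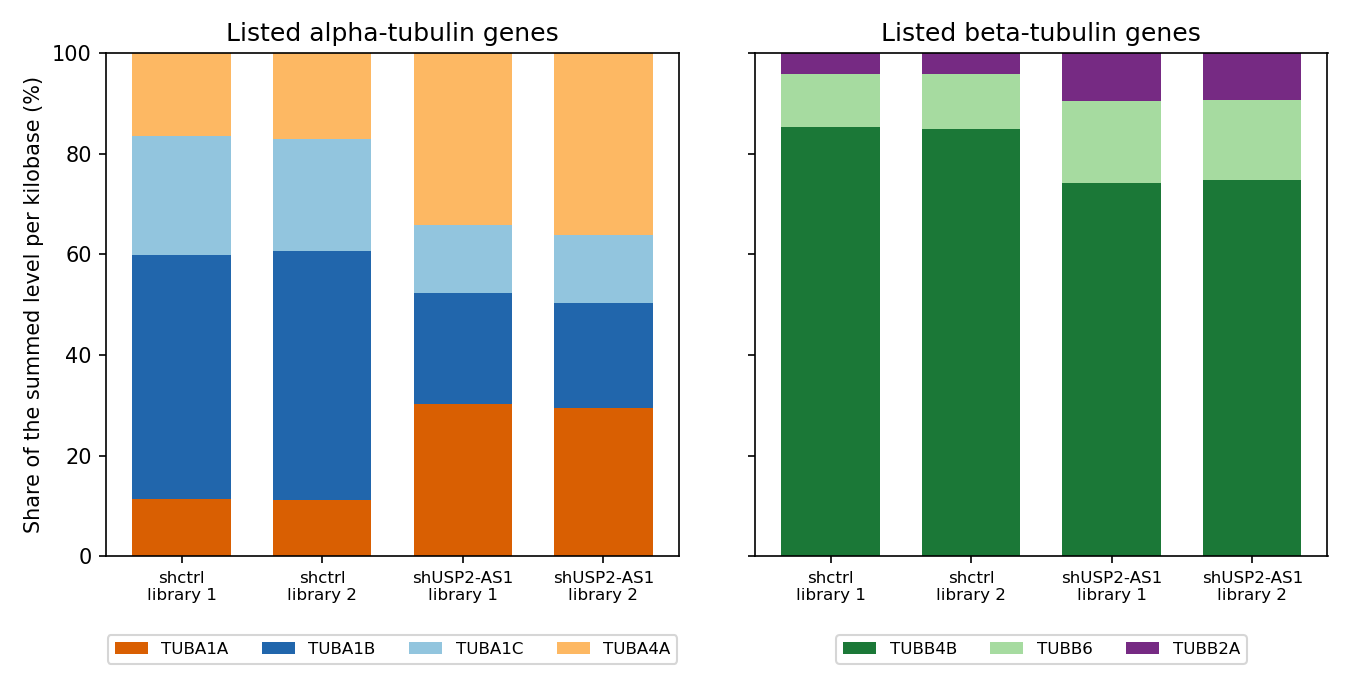
Stacked bars of the share (%) of each listed α-tubulin gene (left) and β-tubulin gene (right) in the summed level per kilobase, for each library. On the left TUBA1A widens from 11.3% to 29.8% and TUBA4A from 16.8% to 35.2% of the mean, while TUBA1B narrows from 49.0% to 21.5%, and on the right TUBB4B stays above 74%.

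Reads from near-identical copies may be counted for the wrong gene or left out, and how the counting treated them is not given in the sources used here. In TUBA1B, 37.2% of all 100-base stretches of the canonical transcript occurred exactly elsewhere in the genome or in a transcript of a gene that does not overlap it. TUBA1A held 18.5% of all its stretches and TUBA1C 18.6%. In TUBA1A the share was 21.1%, and in TUBA1C 12.3%. Transcripts of genes that overlap the gene itself were left out of this search. TUBA1A and TUBA1C overlap each other, so stretches across exon joins that they share were missed. Their shares may therefore be too low. TUBB2A had the highest share, 55.6%, and 53.7% of its stretches were also in TUBB2B, so its values are uncertain. TUBG1 shared 15% of its stretches with its copy TUBG2, TUBB4B shared 3.01% with TUBB2A, and TUBB6 shared none at this length. For these genes, every shared 100-base stretch that was found lay within coding sequence.

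**Figure D4:**
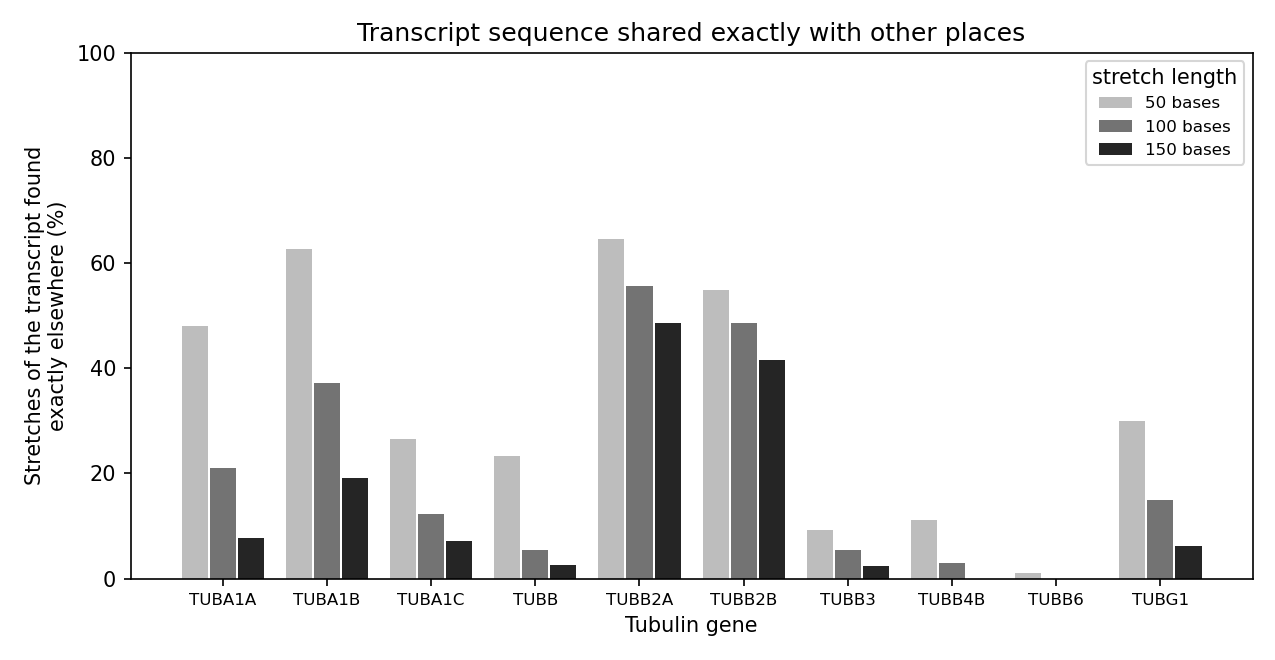
Percentage of the 50-, 100- and 150-base stretches of the canonical transcript of each of the 10 genes that are found exactly in another place of the genome or in a transcript of a gene that does not overlap it. TUBB2A and TUBB2B keep 48.7% and 41.6% at 150 bases, TUBA1B keeps 19.1%, and TUBB4B and TUBB6 keep none.

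Some members also overlap genes on the other strand, and the strand setting of the counting is not given in the sources used here. The antisense RNA TUBA1B-AS1 covers 72.6% of the exonic bases of the canonical TUBA1B transcript. TUBA1A and TUBA1C overlap by 345 bases at their starts, of which 104 lie in exons of the canonical TUBA1A transcript, 6.22% of its length. An unnamed long noncoding RNA covers 23.6% of the TUBA1C transcript, FAM166A covers 7.93% of TUBB4B and RETREG3 covers 6.16% of TUBG1. Of these partners, RETREG3 and the TUBA1 genes themselves were among the listed genes and the others were not. Reads of the partners cannot be told apart from those of the members here.

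Of the 13 other tubulin genes, TUBA4A and TUBA4B were listed and both rose, where 16.1% of all genes tested were called higher. TUBA4A had 5382 and 5442 normalised reads in shctrl and 11077 and 12294 in shUSP2-AS1, which gave a log2 fold change of 1.11 (SE 0.053, adjusted p = 3.53e-12). Its exons overlap STK16 on the other strand over 30.6% of the canonical transcript. None of its 100-base stretches was found outside its own interval. That search left out the transcripts of STK16 and TUBA4B, which overlap it, so sharing with TUBA4B was not tested. TUBA4B had 9.66 and 11.0 normalised reads in shctrl and 39.96 and 47.5 in shUSP2-AS1, and it lies within the interval of TUBA4A on the opposite strand, so its reads are uncertain. The processed pseudogenes TUBBP1 and TUBBP2, copies of a β-tubulin mRNA, had log2 fold changes of -0.70 (SE 0.055) and -0.71 (SE 0.104). In TUBB, 5.42% of the 100-base stretches were also found in TUBBP1.

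Of 21 genes that help to fold tubulin, 13 were listed, 12 with a log2 fold change below 0, and 3 fell while none rose, with a median of -0.90. Among all 6812 genes tested, 3362 were below 0, 13.5% were called lower and 16.1% higher. TCP1, a subunit of the CCT chaperonin that folds α- and β-tubulin, fell by 1.27 on the log2 scale (5100 ± 87.5 to 2110 ± 78.5 normalised reads, adjusted p = 4.53e-13). CCT6A, of the same ring, fell by 1.16 (7860 ± 20.9 to 3515 ± 112, adjusted p = 6.34e-13). TBCE, a cofactor that helps to join α- and β-tubulin, fell by 1.29 (72.3 ± 4.34 to 29.1 ± 2.46, adjusted p = 0.000113). Only the entry ENSG00000285053 was used for TBCE. It rests on 78 and 63 reads in shctrl against 26 and 35 in shUSP2-AS1.

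Of 21 genes of the γ-tubulin complex and of microtubule nucleation, 15 were listed, and 5 fell and none rose, with a median log2 fold change of -0.90 that lay beside the -0.91 of TUBG1. The shares over all genes tested were 13.5% called lower and 16.1% called higher. NEDD1, which targets the γ-tubulin ring complex to the centrosome and spindle, fell by 2.06 on the log2 scale (573 ± 7.52 to 136 ± 3.93 normalised reads). Augmin subunits, which recruit the ring complex to existing microtubules, made up the other 4. HAUS1, HAUS8, HAUS6 and HAUS5 fell, with log2 fold changes of -1.67, -1.43, -1.37 and -1.31 and adjusted p of at most 2.39e-07 by limma. The ring subunits TUBGCP2, TUBGCP3 and TUBGCP6 had log2 fold changes of -0.36, -0.99 and 0.33 and were not called.

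Enzymes that modify tubulin went both ways. Of 31 genes 8 were listed and 7 tested, of which 3 rose and 1 fell. By the same rule 16.1% of all genes tested were called higher and 13.5% lower. The polyglutamylase gene TTLL7 rose by a log2 fold change of 1.67, VASH2, which helps to remove the C-terminal tyrosine of α-tubulin, by 1.55, and TTLL11, another polyglutamylase, by 1.06. TTLL5, also a polyglutamylase, fell by 1.28 on the log2 scale. For the feedback on tubulin mRNA, 9 of 13 genes were listed, 8 with a log2 fold change below 0, and 2 fell and none rose. SCAPER, the listed gene above 0, had a log2 fold change of 0.56 and was not called. CNOT11, the CCR4-NOT subunit that links the complex to this pathway, fell by 1.88 (1138 ± 34.8 to 310 ± 42.5 normalised reads, adjusted p = 5.29e-12), and the deadenylase CNOT7 fell by 1.13. TTC5 itself was not among the listed genes.

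Of 39 genes for microtubule dynamics and binding, 25 were listed, and 6 fell and 5 rose. TPX2, a spindle assembly factor, fell by 2.22 on the log2 scale (3875 ± 134 to 834 ± 60.9 normalised reads). TACC3, of the spindle, fell by 2.24 and KIF2C, a kinesin that depolymerises microtubules, by 2.19. STMN3, a stathmin of neurons that binds tubulin dimers, rose by a log2 fold change of 1.80 (599 ± 6.63 to 2094 ± 117) and MAPRE3, a plus-end binding protein, by 1.67 (483 ± 39.0 to 1537 ± 108). Over all genes tested 29.7% were called in either direction, against 28.6% of the tubulin members, 23.1% of the folding genes, 33.3% of the nucleation genes, 57.1% of the modifying enzymes, 22.2% of the feedback genes and 44% of the dynamics genes.

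Of the 9 genes often used as references 7 were listed, none was called and their log2 fold changes ran from -0.48 for YWHAZ to 0.89 for B2M. Markers of cell types were set beside these results. The summed normalised read count of 5 listed epithelial markers of 11 was 169034 to 180192 in shctrl and 108413 to 115018 in shUSP2-AS1, and KRT18 fell (log2 fold change -1.05). KRT19 of this list had a log2 fold change of 0.75 and was not called. The list also holds CDH2, N-cadherin, which is usually a marker of mesenchymal cells, and CDH2 rose (1.21). That of 5 listed neuronal markers of 14 was 1657 to 1732 in shctrl and 2720 to 2734 in shUSP2-AS1, with SYP (log2 fold change 1.72) and NEFH (2.17) called higher. INA, with 1103 normalised reads in shctrl and 1938 in shUSP2-AS1, made up most of that sum, RBFOX3 had a log2 fold change of -0.68, and neither was called. The summed count of 4 listed fibroblast markers of 9 was 556 to 631 in shctrl and 1474 to 1624 in shUSP2-AS1. ACTA2, THY1, COL1A1 and LUM were called higher, where 16.1% of all genes tested were. LUM had only 2 and 1 reads in shctrl against 24 and 18 in shUSP2-AS1, and NEFH 12 and 4 against 28 and 50. Both passed the filter on low values only through the shUSP2-AS1 libraries. The cell type markers moved in the same libraries as TUBA1A and TUBA1B, and their part in the tubulin results was not tested. In bulk RNA, fewer cells with a transcript and less of it per cell cannot be told apart.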

How the data were processed

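RNA-seq libraries (poly-T selected RNA, TruSeq kit) came from 4 samples, 2 per group. Per the submitters' processing notes the authors used HISAT2 2.0.5, featureCounts 1.5.0-p3 and DESeq2 1.20.0 on hg38. The deposited values are normalised read counts per gene, a signal that the authors obtained by dividing counts by a size factor, and the gene length is the authors' own. Columns were assigned to groups by the words scr and sh216 in their names, not to single samples. The authors' own fold change and p columns were not used. Dividing by the value of 1 read gave whole reads for 100% of values in each library. Values were tested as log2(value + 1) with limma 3.58.1 (trend, two-sided) over genes with a mean of at least 10, leaving out 16 genes, with Benjamini-Hochberg adjustment. Fold changes on this scale understate low genes. The p-values rest on the spread between 2 libraries per group, with each gene's variance drawn towards a trend over all genes tested. Small p-values therefore come largely from a spread pooled over genes selected on this contrast, and not from the 2 libraries alone. The replicates differed by more than sampling noise (chi-square per degree of freedom 3.75 and 3.84). Intervals cover 95%. In simulated data (6806 genes, 200 changed) limma recovered all 200. The changes set there were all larger than a call requires and lay in genes with high counts, and the other genes were unchanged. This simulation therefore does not test calls near the threshold or in genes with few reads. The members and 11 further gene lists were chosen with earlier results of these data known. The genes named are all members, USP2-AS1 and, from each list, up to 5 called genes by lowest p, or, with fewer than 2 called, up to 2 with the largest change. TUBGCP2, TUBGCP3, TUBGCP6, SCAPER, KRT7, KRT8, KRT19, INA, RBFOX3, EPCAM, CDH1, TTC5 and the pseudogenes were named outside that rule, after their values were seen. Sequence was compared with GENCODE v44 (Biopython 1.88). Stretches of the coding sequences are not reported here.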

Additional observations from a re-analysis of the deposited data

How the results depend on the processing

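All 7 listed members kept their direction under 15 alternatives, and of 105 member values 103 stayed on their side of the call. The other 2 were TUBG1 with RLE scaling (-1.03) and in DESeq2 1.42.0 with its own size factors (-1.02), where 2 members were called lower, against 1 with the authors' scaling. The other pseudocount, the filters, the replicate block and count tests with the authors' scaling left each fold change nearly as it was. Such settings could hardly move a call. Without each library in turn TUBA1A ranged from 1.41 to 1.47, TUBA1B from -1.15 to -1.14 and TUBG1 from -0.95 to -0.87, and the calls of all 7 members held. With the replicate block TUBA1A stayed at 1.44, TUBA1B at -1.14 and 922 genes were called lower and 1098 higher, as without it. The replicate differences of the groups correlated at -0.04 across genes, so equal numbers do not pair the libraries. In a test against a fold change of 2, 523 genes were called lower and 541 higher, in place of 922 and 1098, and TUBA1A and TUBA1B (adjusted p = 0.0229) remained called. TUBB6 (0.20, not called) was 0.087 with RLE scaling and 0.089 with DESeq2's own size factors. With canonical transcript lengths the shctrl share of TUBA1A was 10.9% in place of 11.3% and that of TUBB6 16.4% in place of 10.8%. TUBB2A was not summed with TUBB2B, which is not listed. With 2 libraries per group and a table of selected genes, no statement can be made on tubulin genes that are not listed.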
